A study of Mus musculus with 12 samples.

Results

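All 8 grafts that received added ASC were compared with the 4 control grafts, over every gene of the table, to describe what the grafts with added cells had in common against grafts of fat alone. The 8 libraries are the 4 labelled CAL and the 4 labelled CAL with DLL4 inhibition (CAL_Dll4i), and with the 4 controls they make up all 12 libraries of the series. Every library was made from adipose tissue of C57BL/6 wild-type mice aged 16 weeks, as a fat graft of 8 weeks. Controls received fat alone, CAL received fat with ASC, and CAL_Dll4i received fat with ASC and Dll4 inhibition. Neither the means of Dll4 inhibition nor whether each library is a separate animal is stated in the labels. The p-values therefore cover only the spread between these libraries, which may be technical.

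In cell-assisted lipotransfer (CAL), transplanted fat is enriched with ASC, which commonly stands for stem or stromal cells derived from fat. A graft has no blood supply of its own at first: many adipocytes die, macrophages clear the lipid, and vessels, stroma and new adipocytes form around the survivors. Dll4 is a Notch ligand of sprouting endothelial cells that limits how many cells lead new vessel sprouts.

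Total counts ran from 55883051 to 70804141 per library. Across genes on the log2 scale, r was 0.9752 to 0.9891 for the 18 pairs of libraries inside a group and 0.9695 to 0.9895 for the 48 pairs from different groups. The grafts carried adipose and macrophage RNA. By the deposited TPM the adipocyte hormone gene Adipoq averaged 150 in controls and 219 in ASC grafts. The macrophage receptor gene Adgre1 averaged 375 and 397 in the same order. How evenly the library kit reads different genes was not tested, so these values do not rank Adipoq against Adgre1. Skeletal muscle RNA set 3 ASC libraries apart: of the 6 tested genes of a 13-gene fast muscle list, summed CPM (counts scaled to library size) were 175 in CAL 1, 403 in CAL 2 and 659 in CAL_Dll4i 3, against 3.09 to 17.5 in the other 5 ASC libraries and 3.05 to 7.77 in controls. Keratinocyte RNA (8 of 12 listed genes tested) ran from 11.5 to 276 CPM in controls and from 10.8 to 538 in ASC grafts.

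No gene passed an adjusted p of 0.05 in the pooled comparison by edgeR's quasi-likelihood test (18551 genes, smallest adjusted p = 0.118) or by limma's voom (smallest adjusted p = 0.0613). By edgeR, 1105 genes were higher (5.96% of those tested) and 1142 lower (6.16%) at an unadjusted p under 0.05. As an alternative, DESeq2 called 174 genes higher (0.958% of the 18163 genes with an adjusted p) and 91 lower (0.501%). On a single set of simulated counts with known changes DESeq2 made 36 false calls where edgeR made 5. DESeq2 adjusted p-values here may be too small. The simulated counts were drawn with edgeR's own estimates of spread, so they cannot decide which test is nearer right on the real counts. All 8 ASC libraries lay above all 4 controls for 134 genes (0.722%) and below all of them for 117 (0.631%). Of the DESeq2 calls, 79 of 174 higher and 37 of 91 lower genes had such groups without overlap. Without the 3 libraries with muscle RNA DESeq2 called 64 genes higher and 41 lower of 16488 with an adjusted p. Of these calls 52 and 26 were also made on all 12 libraries, and edgeR again called none. The plot of fold change against p shows both the small size of most differences and a tail of muscle genes at the right.

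**Figure D1:**
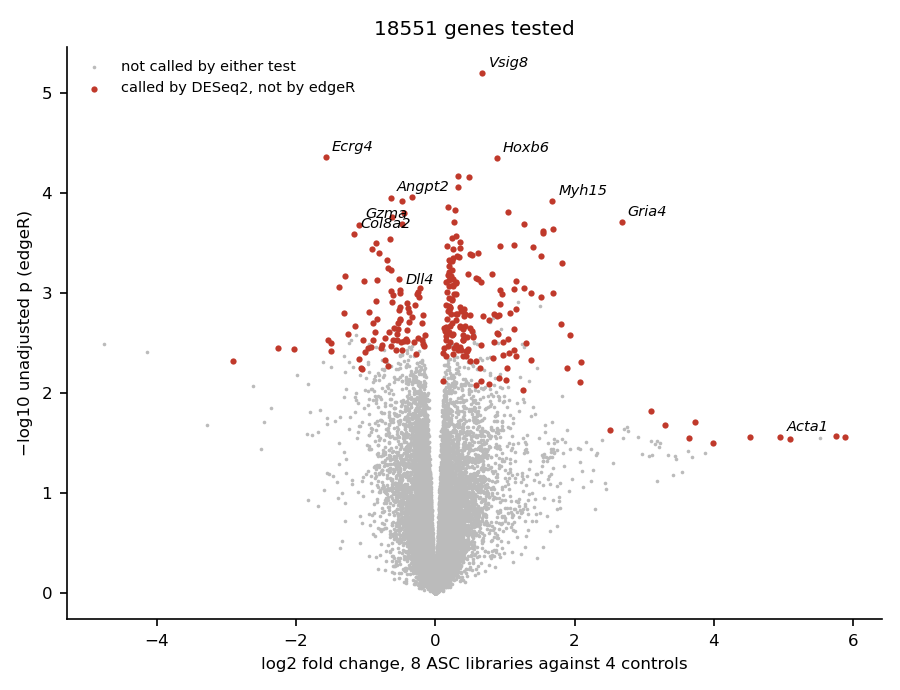
Each point is 1 of 18551 genes; the x axis is the log2 fold change of 8 ASC libraries against 4 controls and the y axis -log10 of the unadjusted edgeR p. Red points are the 265 genes called by DESeq2, with Vsig8 and Ecrg4 at the top and the muscle gene Acta1 far to the right at a modest p.

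The 10 genes with the smallest p in each direction are described next, none of which passed by edgeR (adjusted p = 0.118 for Vsig8 and 0.186 for the other 19). All 20 passed by DESeq2 (1.46% of all genes did, in either direction), and 17 of the 20 had groups without overlap (1.35% of all genes). These genes were chosen by their p in this comparison, so those counts describe them and support nothing further. The higher genes differed by 0.19 to 2.67 on the log2 scale and the lower ones by 0.33 to 1.57.

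Atp6v0a1, Grn and Snx8, whose proteins act in endosomes or lysosomes, were 3 of the 10 higher genes, with small differences and a narrow spread. Atp6v0a1, a membrane subunit of the V-ATPase proton pump that acidifies lysosomes, had 374, 371, 366 and 357 CPM in controls and 406 to 521 (median 469) in ASC grafts. No ASC library reached down to the controls, and the log2 fold change was 0.33 ± 0.05 (SE). Grn, which encodes progranulin, a secreted precursor of lysosomal peptides, had 541, 544, 520 and 550 CPM in controls and 580 to 656 (median 613) in ASC grafts, again without overlap, at a log2 fold change of 0.19 ± 0.03. Snx8, a sorting nexin of endosomes, had 42.7 to 45.7 CPM in controls and 49.9 to 60.7 in ASC grafts (log2 fold change 0.27 ± 0.05). Psap, the precursor of the saposins that assist lipid breakdown in lysosomes, had the smallest p among 32 lysosomal genes, at 1588, 1606, 1519 and 1594 CPM in controls and 1633 to 1930 in ASC grafts (log2 fold change 0.20 ± 0.05, adjusted p = 0.209 by edgeR and 0.00333 by DESeq2, but 0.0591 by DESeq2 without the 3 libraries with muscle RNA).

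Over the whole lists the estimates were split. Of the 32 lysosomal enzymes and membrane proteins, 21 had higher and 11 lower estimates. Their median log2 fold change was 0.03 against -0.00 over all genes tested. Of 17 V-ATPase genes 6 were higher and 11 lower (median -0.01), with Atp6v0a1 at one end (0.33) and the lowest member at -0.20. The other V-ATPase gene with the smallest p, Atp6v1b2, a subunit of the cytosolic sector, had a log2 fold change of 0.13 ± 0.04.

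Cholesterol export genes had mostly higher estimates. Abca1, which moves cholesterol out of cells to apolipoprotein A-I, had 701, 679, 611 and 715 CPM in controls and 732 to 924 (median 819) in ASC grafts. The groups did not overlap, and the log2 fold change was 0.30 ± 0.06 (adjusted p = 0.186 by edgeR, 0.000894 by DESeq2). Its partner Abcg1 was at 0.27 ± 0.08, with overlap. In all, 11 of 12 genes of this group had higher estimates (median 0.17, and 0.11 without control 3). The median was 0.26 in CAL and 0.08 in CAL_Dll4i. At an unadjusted p under 0.05, 4 of the 12 genes were higher (5.96% of all genes were). Nr1h2, a liver X receptor gene, was lower at that level, at -0.23 ± 0.09. Axl, a receptor tyrosine kinase with which macrophages take up dying cells, had a log2 fold change of 0.29 ± 0.07 (edgeR adjusted p = 0.206), with overlapping groups. Axl was at 0.46 in CAL and 0.12 in CAL_Dll4i. Its ligand gene Gas6 was at -0.33 ± 0.10. General macrophage markers were close to 0: 8 of 13 were higher, with a median of 0.06, and the mannose receptor gene Mrc1 was at 0.01 ± 0.06.

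**Figure D2:**
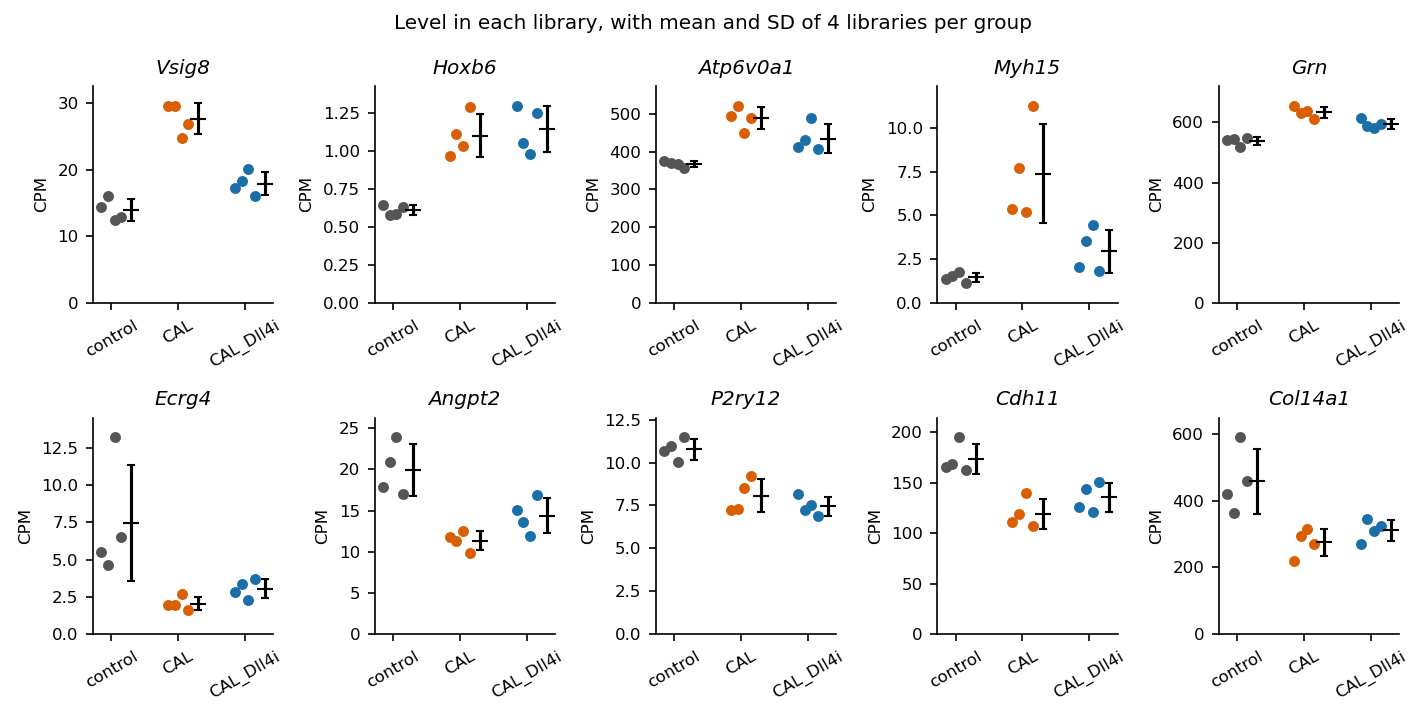
CPM of 10 genes in each library (points), with the mean and SD of the 4 libraries of each group (black). All 8 ASC libraries lie above the 4 controls in the upper row and below them in the lower row. The 10 genes were taken from the 17 without overlap among the 20 leading genes, so this separation follows from that choice.

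The gene with the smallest p was Vsig8, whose product is an immunoglobulin-domain protein of the cell membrane. It had 14.4, 16.0, 12.5 and 12.9 CPM in controls, 29.6, 29.7, 24.9 and 26.9 in CAL, and 17.3, 18.3, 20.1 and 16.1 in CAL_Dll4i. The pooled groups met without overlap, since the lowest CAL_Dll4i library stood just above the highest control, and the CAL libraries stood apart from both. The pooled log2 fold change was 0.68 ± 0.09, made of 0.99 in CAL and 0.36 in CAL_Dll4i. Against control alone, Vsig8 was the only gene that edgeR called in CAL (adjusted p = 0.00796, 0.00539% of genes), and its adjusted p in CAL_Dll4i was 0.668. At an unadjusted p under 0.05 those comparisons held 14.6% and 6.92% of genes. The 2 ASC groups share these controls.

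Myh15, a myosin heavy chain gene, showed the same order at a larger scale. It had 1.39, 1.56, 1.74 and 1.14 CPM in controls, 5.39, 7.72, 5.18 and 11.3 in CAL, and 2.04, 3.51, 4.43 and 1.81 in CAL_Dll4i. The pooled log2 fold change of 1.68 ± 0.30 combined 2.34 in CAL and 1.02 in CAL_Dll4i. CAL 4 had the highest level. Without the 3 libraries with muscle RNA the estimate was 1.62, and over the alternatives run it ranged from 1.51 to 1.83.

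Gria4 and Syn2 had the lowest levels of the higher genes together with Hoxb6. Gria4, a subunit of AMPA glutamate receptors, had 0.101, 0.193, 0.330 and 0.140 CPM in controls and 0.583 to 2.98 (median 1.13) in ASC grafts, 6.56-fold more on average (log2 fold change 2.67 ± 0.50). Syn2, a synapsin gene, had 0.473, 0.594, 0.705 and 0.519 CPM in controls and 0.975 to 1.66 (median 1.06) in ASC grafts (1.04 ± 0.19). Neither group overlapped its controls, at levels near 1 CPM. Timp4 lies inside Syn2, and how reads in both were assigned is not known from the labels or headers. The remaining higher genes were Hs6st1, a heparan sulfate sulfotransferase (0.33 ± 0.06), and Arhgap25, a Rac GTPase-activating protein of blood cells (0.28 ± 0.05), whose groups overlapped.

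Homeobox genes, which record body position in mesenchymal cells, were represented by Hoxb6. It had 0.642, 0.578, 0.585 and 0.631 CPM in controls, 0.964, 1.11, 1.03 and 1.29 in CAL, and 1.30, 1.06, 0.980 and 1.25 in CAL_Dll4i. The controls lay close together and below both ASC groups, whose ranges overlapped (log2 fold change 0.88 ± 0.14, 0.85 in CAL and 0.91 in CAL_Dll4i). Hoxb5os overlaps Hoxb6 in the annotation. The rest of the family was then looked up after these values had been seen, so its counts are a description. Of 26 Hox genes tested 20 had higher estimates (median 0.42), where 48.7% of all genes did. Hoxb6, Hoxc6 and Hoxa6 lay above all controls without overlap, as did 0.722% of all genes.

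Within the family the clusters differed in range. All 6 tested genes of the HoxC cluster on chromosome 15 had estimates between 0.61 and 1.05 (median 0.84). Hoxc6 had 4.85, 5.89, 5.00 and 3.32 CPM in controls and 7.11 to 13.1 in ASC grafts, a log2 fold change of 0.92 ± 0.19 (adjusted p = 0.186 by edgeR, 0.000626 by DESeq2). HoxA (chromosome 6) had 8 of 9 tested genes above 0 with a median of 0.34, led by Hoxa6 at 1.13. HoxB (chromosome 11) had 4 of 6 tested genes above 0 with 0.09, and HoxD (chromosome 2) 2 of 5 with -0.03. The summed level of the 26 genes was 27.4 to 36.1 CPM in controls and 34.6 to 51.8 in ASC grafts, so the groups overlapped through CAL_Dll4i 4. Hox genes of a cluster lie side by side and share transcripts, so they are not separate pieces of evidence.

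**Figure D3:**
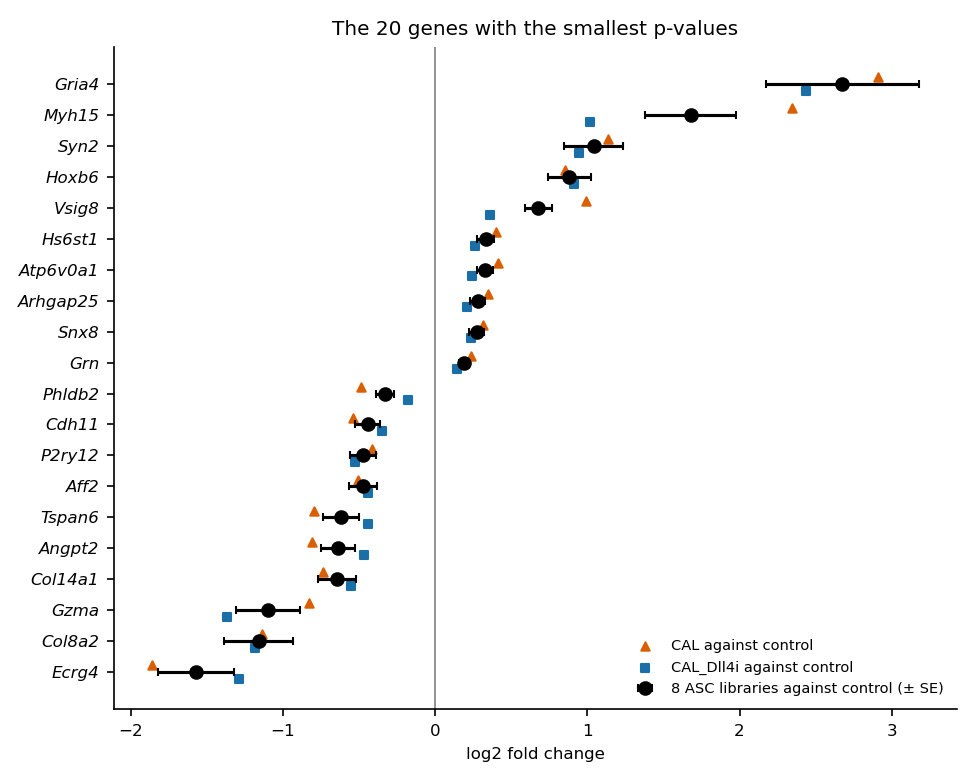
Log2 fold change against control of the 20 genes with the smallest p: black points with SE bars for the 8 ASC libraries, orange triangles for CAL and blue squares for CAL_Dll4i. Hoxb6 and Col8a2 have nearly the same value in both ASC groups, while Vsig8 and Myh15 are at 0.99 and 2.34 in CAL and at 0.36 and 1.02 in CAL_Dll4i.

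Vessel genes were among those with lower estimates. In bulk tissue, fewer cells of a type and less RNA per cell cannot be told apart. Dll4 itself had 5.53, 5.68, 6.95 and 4.97 CPM in controls, 4.03, 4.22, 3.60 and 3.01 in CAL, and 4.95, 3.98, 4.35 and 4.39 in CAL_Dll4i. Every ASC library was below every control, although CAL_Dll4i 1 lay next to control 4. The log2 fold change was -0.51 ± 0.12 (adjusted p = 0.209 by edgeR, 0.0108 by DESeq2), with -0.64 in CAL and -0.39 in CAL_Dll4i. The predicted gene Gm14207 overlaps Dll4. Its level does not check the inhibition, since the labels do not say at which step Dll4 was blocked.

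Angpt2, a ligand of the Tie2 receptor that loosens vessel walls during sprouting, had 17.8, 20.9, 23.9 and 17.0 CPM in controls and 9.81 to 16.9 (median 12.2) in ASC grafts. The groups met without overlapping, CAL_Dll4i 4 reaching closest to the controls. The log2 fold change was -0.64 ± 0.11 (-0.81 in CAL, -0.47 in CAL_Dll4i). Angpt2 lies within Mcph1 in the annotation. Esm1, a proteoglycan gene of endothelial tip cells, had 2.40, 2.38, 3.84 and 1.71 CPM in controls and 0.359 to 2.15 in ASC grafts (-1.49 ± 0.40).

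Both vessel lists had mostly lower estimates. Of 25 angiogenic genes 18 had lower estimates. At an unadjusted p under 0.05 none was higher (5.96% of all genes were) and 7 were lower (6.16% of all genes were): Angpt2, Esm1, Apln (-1.08), Pgf (-0.96), Efnb2 (-0.46), Unc5b (-0.53) and Vegfc (-0.35). The list's median was -0.08 (-0.14 in CAL, -0.06 in CAL_Dll4i), and -0.02 without control 3, the control with the most Angpt2 and Esm1. Vegfa, the main vessel growth factor gene, was at -0.05 ± 0.13 and its receptor gene Kdr at -0.04 ± 0.13. Of 20 endothelial markers 14 were lower (median -0.10, and -0.02 without control 3), 4 of them at an unadjusted p under 0.05 and 1 higher at that level, with Ecscr at -0.55 ± 0.14 and Pecam1 at -0.17 ± 0.11. Of 23 tested Notch pathway genes 13 were lower and 10 higher (median -0.03), and Dll4 was the sole member at an unadjusted p under 0.05 in edgeR. The target gene Hes1 averaged to -0.11 ± 0.14 from -0.40 in CAL and 0.17 in CAL_Dll4i, and Nrarp to -0.23 ± 0.17 from -0.51 and 0.06. Hey1, also a target gene, went the other way at 0.25 (0.10 to 0.46 over the alternatives run).

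Matrix and stromal genes supplied other members with lower estimates. Col14a1, a collagen that binds fibril surfaces, had 421, 362, 590 and 460 CPM in controls and 219 to 344 (median 303) in ASC grafts. Its groups did not overlap (log2 fold change -0.65 ± 0.13, -0.74 in CAL and -0.55 in CAL_Dll4i). Cdh11, the cadherin of mesenchymal cells, had 166, 169, 195 and 163 CPM in controls and 107 to 151 (median 124) in ASC grafts, also without overlap (-0.44 ± 0.08). Col8a2, a network collagen gene, was at -1.16 ± 0.23, without overlap. It averaged 4.09 CPM in controls (at least 2.76 in each) and 1.83 in ASC grafts (at least 1.34 in each). Without the 3 libraries with muscle RNA its DESeq2 adjusted p was 0.0548, the sole call of the 20 lost there.

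Ecrg4, which encodes a secreted peptide precursor, had the smallest p of the lower genes, with 5.51, 4.64, 13.2 and 6.49 CPM in controls and 1.64 to 3.72 (median 2.49) in ASC grafts. Control 3 was the highest, and the estimate of -1.57 ± 0.25 stayed between -1.75 and -1.13 over the alternatives run. Sfrp2, a secreted Wnt modulator of adipose stroma, was at -0.80 ± 0.16, with overlapping groups. Tfpi2, a serine protease inhibitor of the matrix, was at -0.86 ± 0.17, without overlap. P2ry12 encodes an ADP receptor of platelets and some macrophages and lies within Med12l. It averaged 10.8 CPM in controls and 7.76 in ASC grafts (6.89 to 9.22), without overlap (-0.47 ± 0.08). Tspan6, a tetraspanin, was at -0.62 ± 0.12, Aff2, a nuclear protein gene on the X chromosome, at -0.47 ± 0.09, and Phldb2, which anchors microtubules at the cell cortex, at -0.33 ± 0.06, the last with overlapping groups.

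Of 25 elastic fibre and matrix glycoprotein genes 21 had lower estimates (median -0.20, and -0.10 without control 3). The median was -0.34 in CAL and -0.06 in CAL_Dll4i. At an unadjusted p under 0.05, 6 of the genes were lower and 1 higher, where 6.16% and 5.96% of all genes were. The proteoglycan gene Vcan was at -0.76 ± 0.20 and the fibrillin gene Fbn1 at -0.28 ± 0.09. Tnxb, a tenascin, went the other way at 0.49. Collagen estimates centred near 0: Col1a1 was at 0.15 ± 0.10, and 17 collagen genes had a median of -0.05, with -0.21 in CAL and 0.18 in CAL_Dll4i.

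**Figure D4:**
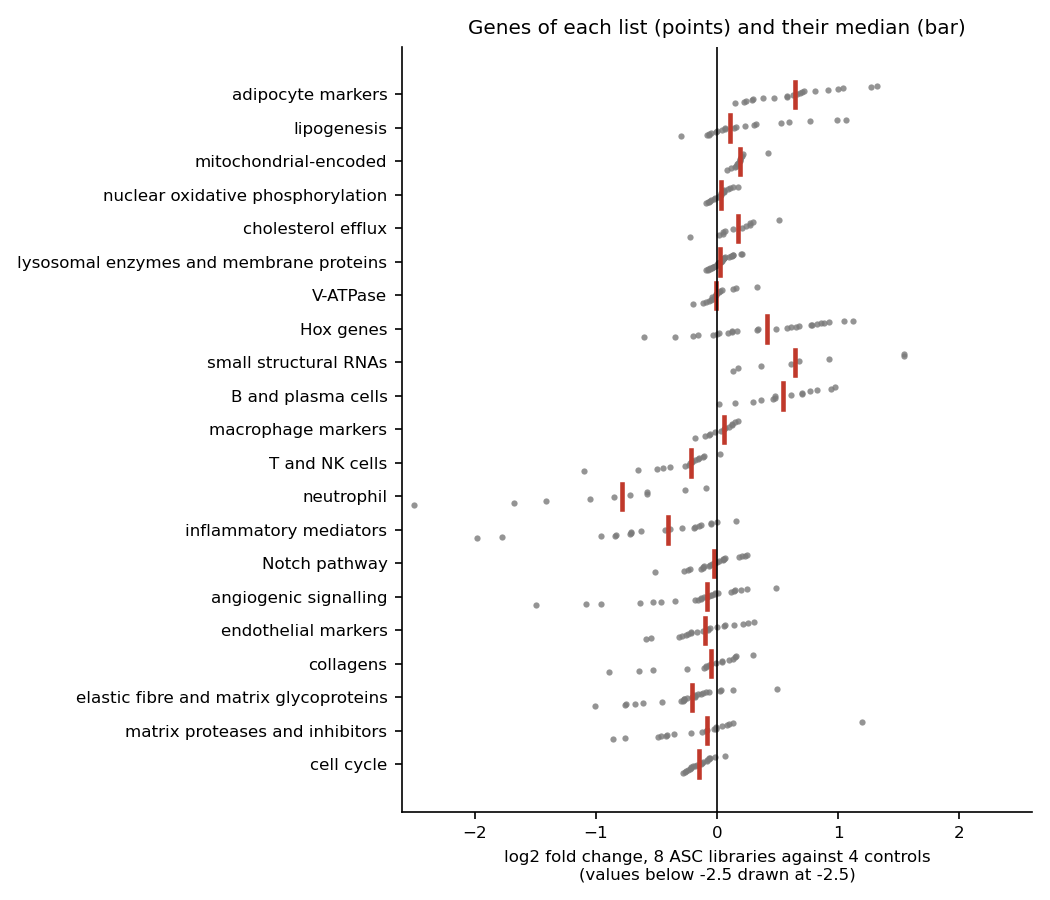
Log2 fold change of 8 ASC libraries against 4 controls for the genes of 21 lists (points), with each list's median (red bar). Medians are 0.64 for adipocyte markers and -0.78 for neutrophil genes, while the nuclear oxidative phosphorylation, lysosomal, V-ATPase and Notch lists centre near 0.

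Fat cell genes had mostly higher estimates. All 20 adipocyte markers had higher estimates (median 0.64, with 0.95 in CAL and 0.33 in CAL_Dll4i). At an unadjusted p under 0.05, where 5.96% of all genes were higher, so were 6 of these markers. Their summed level was 2770, 2285, 3222 and 1824 CPM in controls, 3922, 3350, 3401 and 4403 in CAL, and 2726, 3278, 3290 and 2763 in CAL_Dll4i. The CAL libraries all lay above the controls, while CAL_Dll4i overlapped them. Control 4 was the lowest, and without it the median was 0.39.

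Cidea, a lipid droplet protein gene typical of thermogenic fat, was the one adipocyte marker without overlap, at 0.237, 0.321, 0.330 and 0.323 CPM in controls and 0.474 to 1.08 (median 0.709) in ASC grafts. Its log2 fold change was 1.27 ± 0.24 (adjusted p = 0.186 by edgeR, 0.00546 by DESeq2), similar in both ASC groups at 1.38 and 1.15. Lpl, the lipase that releases fatty acids from lipoproteins, was at 0.24 ± 0.06. Adipoq had 87.0, 62.5, 117 and 35.8 CPM in controls and 73.7 to 172 in ASC grafts (0.58 ± 0.28), with overlap. Lep, the leptin gene, was at 1.00 ± 0.50 and the lipid droplet coat gene Plin1 at 0.38 ± 0.34. Without control 4 these were 0.34 for Adipoq, 0.68 for Lep and 0.11 for Plin1, and without control 3 Adipoq was at 0.87 and Plin1 at 0.70. Of 20 lipogenic genes 14 were higher (median 0.11, but 0.02 without control 4 and 0.22 without control 3). The median was 0.32 in CAL and -0.05 in CAL_Dll4i. The list was led by Scd1, the stearoyl-CoA desaturase, at 0.59 ± 0.18, and Pck1, which makes glycerol for triglycerides, at 0.99 ± 0.32.

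Mitochondrial transcripts had small positive estimates. All 13 protein genes of the mitochondrial genome had higher estimates (0.09 to 0.42, median 0.19, from 0.16 to 0.21 over the alternatives run). Of these, 10 were at an unadjusted p under 0.05, where 5.96% of all genes were higher. ND6, a complex I subunit, had 47.7, 46.2, 45.9 and 45.6 CPM in controls and 48.7 to 71.8 (median 66.4) in ASC grafts. CAL 3 and CAL 4 were just above the controls and the others clearly so (log2 fold change 0.42 ± 0.10). Without the 3 libraries with muscle RNA the estimate for ND6 was 0.27. These 13 genes come from a single genome and long shared transcripts, so they are not 13 independent measurements. The median was 0.09 in CAL and 0.27 in CAL_Dll4i. Their summed level was 4518 to 4790 CPM in controls, 4559 in CAL 4, inside that range, and 4876 to 6216 in the other 7 ASC libraries. The 21 nuclear oxidative phosphorylation genes had a median of 0.03, with Atp5a1, a subunit of ATP synthase, without overlap at 0.17 ± 0.04.

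Immune genes with lower estimates belonged to neutrophils, inflammation and cytotoxic cells. All 10 tested neutrophil genes were below 0 (median -0.78), but control 4 held 578 summed CPM against 234 to 314 in the other controls, and without it the median was -0.12. The median was -1.25 in CAL and -0.46 in CAL_Dll4i. Of 20 inflammatory mediators 19 were lower (median -0.41, and -0.26 without control 3; -0.71 in CAL and -0.18 in CAL_Dll4i), among them Il11 (-1.98 ± 0.60), the chemokine gene Ccl7 (-0.96 ± 0.32) and Il6 (-1.77). The summed level was 367 to 458 CPM in controls, 546 in CAL_Dll4i 1, above every control, and 226 to 396 in the other 7 ASC libraries. Il11 reached 4.05 CPM in control 3 and 0.372 to 0.954 in the other controls. Of 16 T and NK cell genes 15 were lower (median -0.22, and -0.03 without control 1; -0.07 in CAL and -0.39 in CAL_Dll4i). Gzma, a granzyme of cytotoxic cells, had 14.7, 13.3, 6.06 and 9.14 CPM in controls and 3.89 to 8.33 (median 4.57) in ASC grafts, so the groups overlapped at control 3 (-1.10 ± 0.21). Of 20 cell cycle genes 19 had lower estimates, all small (median -0.15, and -0.07 without control 4).

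**Figure D5:**
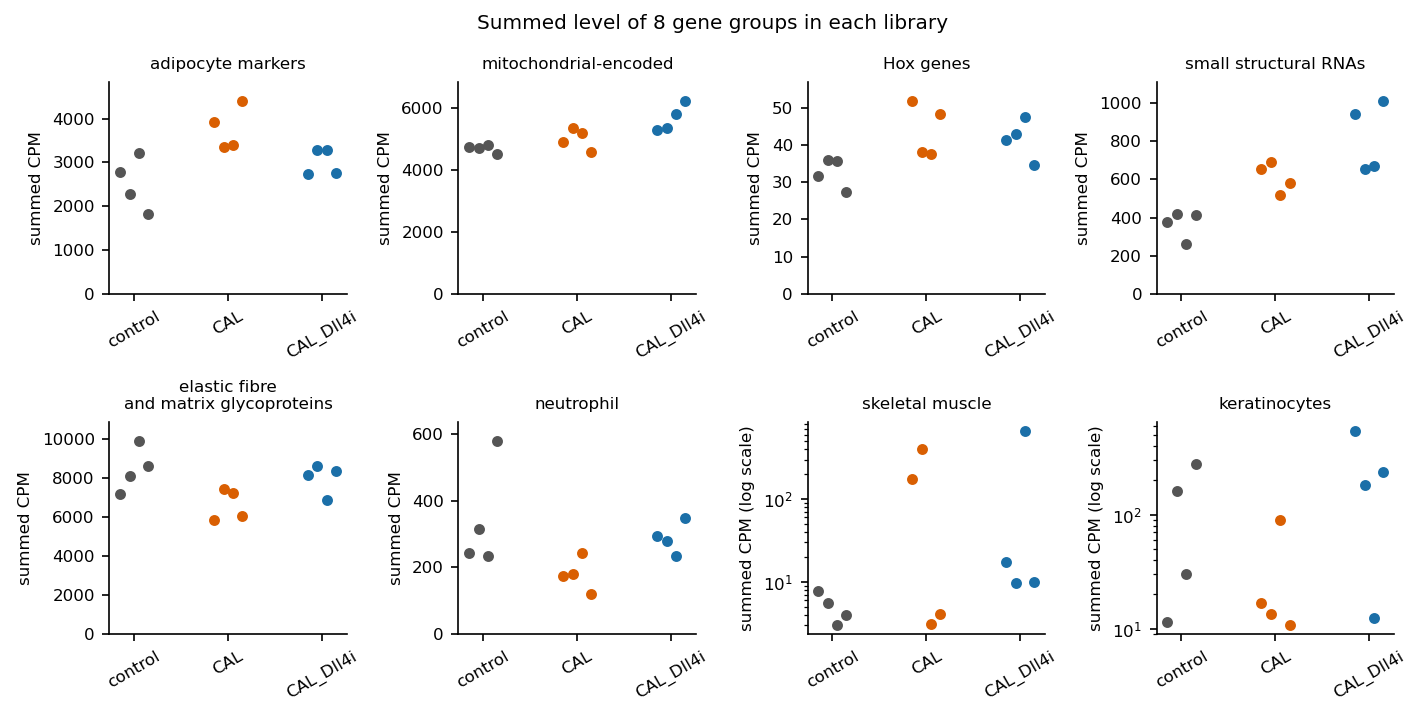
Summed CPM of 8 gene groups in each library by group, with log axes for skeletal muscle and keratinocytes. Small structural RNAs do not overlap between controls and ASC grafts, adipocyte markers in CAL are all above the controls, and the 3 libraries with muscle RNA stand out at 175 to 659.

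The 2 ASC groups were also set against each other, to see how far the pooled values hold in both. Between CAL_Dll4i and CAL no gene was called by edgeR (smallest adjusted p = 0.659, 1377 genes or 7.42% at an unadjusted p under 0.05), limma's voom called none either, and DESeq2 called Vsig8 alone (0.0054%). Without the 3 libraries with muscle RNA, DESeq2 called 142 genes higher and 96 lower of 15766 with an adjusted p, and edgeR still none. The 1377 genes at an unadjusted edgeR p under 0.05 became 450 higher and 260 lower without CAL 4, and 477 and 270 without CAL_Dll4i 4. The 20 leading genes were chosen by p in the same fit, and the test between the ASC groups uses the same residual spread of each gene. Their share therefore cannot be set against the 7.42% above. Of these genes 8 had an unadjusted p under 0.05 for the difference between CAL_Dll4i and CAL. They were Vsig8 (-0.63), Myh15 (-1.33), Atp6v0a1 (-0.17), Grn (-0.09) and Arhgap25 (-0.14) among the higher genes, and Phldb2 (0.31), Angpt2 (0.34) and Tspan6 (0.35) among the lower. The difference was smallest beside its SE for genes such as Col8a2 (-0.05), Aff2 (0.07) and Hoxb6 (0.06). A p that misses the threshold does not show that the 2 groups were equal there.

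Promoters were searched for the motif of RBPJ, the DNA-binding partner of Notch, because Dll4 was one of the members without overlap. The motif GTGGGAA, read on both strands, lies in the promoter of 899 of 12666 tested genes with a RefSeq promoter (7.1%, 250 bases before to 50 after the start, GRCm38.p6). Of the 20 leading genes 16 had such a promoter, and 1 of them held the motif (6.25%), Syn2. Its 250 bases before the start, at chr6:115134652-115134901 on the plus strand, are shown with the motif's reverse complement in capitals.
Syn2: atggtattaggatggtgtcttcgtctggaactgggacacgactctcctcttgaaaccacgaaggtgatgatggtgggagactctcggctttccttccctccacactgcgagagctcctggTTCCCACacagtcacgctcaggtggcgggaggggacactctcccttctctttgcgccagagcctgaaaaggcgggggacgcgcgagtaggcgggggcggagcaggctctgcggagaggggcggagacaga
A match of 7 letters is a description of this window and not a site. The motif TCACGTGA, an E-box palindrome of lysosomal genes, was in 243 of the 12666 (1.92%), in 4 of 25 lysosomal genes and 3 of 11 V-ATPase genes with a promoter, and in none of the 16 leading genes, which says only that these letters are not in those windows.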

How the data were processed

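The authors deposited estimated counts per gene and library, all of them whole, so rounding changed none. FPKM and TPM were deposited beside them per the file headers, and TPM gave the levels of Adipoq and Adgre1 above. RNA was extracted with Trizol and prepared with the SureSelectXT RNA Direct kit per the labels' protocols. Alignment and assembly used HISAT2 and StringTie on mm10 per the submitters' processing notes; no source used here gives the strand setting. The lowest deposited count is 1, so the table holds no gene recorded without reads in some library. Genes absent from a whole group would not be seen here.

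The tests were run with edgeR 4.0.16 in R 4.3.3 (TMM scaling, filterByExpr, robust quasi-likelihood test, 1 coefficient per group, all 12 libraries). The contrast was the mean of CAL and CAL_Dll4i minus control. Calls used a Benjamini-Hochberg adjusted p under 0.05. DESeq2 1.42.0, voom in limma 3.58.1, other scalings and filters, a replicate block and leaving out each library were alternatives. Positions and overlapping genes come from RefSeq GRCm38.p6 (18509 of 18551 genes matched). Named genes are the 10 with the smallest p per direction (no Gm, Rik or LOC symbols), 21 genes of the study's subject and the 2 with the smallest p of each list; 1 of these is not reported here. Members and lists were chosen with earlier results of these data known, and Hox and small structural RNA genes after their values were seen. On simulated counts edgeR recovered 44.6% of 56 genes changed 1.5-fold, 69.4% of 72 changed 2-fold and 94.1% of 68 changed 4-fold. DESeq2 recovered 57.1%, 75% and 94.1% of them. Over 18476 genes edgeR made 5 false calls and DESeq2 36. Plots were made in matplotlib 3.10.9 under Python 3.11.15.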

Additional observations from a re-analysis of the deposited data

Results flagged for a closer look

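In groups of 4 libraries, a library whose distance from the others was large for the group's range was marked for each of 117 named genes. This marked 22 of 351 groups (6.27%), and chance alone marks about 1 in 20.

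Among the controls, control 4 had 74.9 CPM of Chil3, a chitinase-like macrophage protein gene (4.82 to 14.3 in the others), and 29.2 CPM of the neutrophil elastase gene Elane (0.0963 to 1.42). Control 3 had 4.05 CPM of Il11 (0.372 to 0.954), 68.0 of Fosl2 (41.3 to 43.6) and 0.105 of Lrrn4 (0.161 to 0.169). Control 1 had 143 CPM of Notch1 (124 to 126) and 0.237 of Cidea (0.321 to 0.330).

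In CAL, replicate 1 had 23.1 CPM of the casein gene Csn3 (3.81 to 6.75 in the others), 7.40 of Nrarp (4.93 to 5.35), 2.00 of Cdh19 (1.58 to 1.64) and 416 of Atp6v0d2 (482 to 492). Replicate 3 had 25.9 CPM of the keratin gene Krt5 (0.715 to 2.29) and 1.43 of Esm1 (0.359 to 0.395). Replicate 4 had 75.5 CPM of the interferon-induced Oas2 (17.5 to 27.3), 31.8 of Lep (14.6 to 16.5) and 42.2 of Phldb2 (48.2 to 48.6).

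In CAL_Dll4i, replicate 3 had 262 CPM of Atp2a1 (2.58 to 5.87 in the others) and 91.5 of Mylpf (0.353 to 1.75), both fast muscle genes, and 1662 of Fn1 (2061 to 2077). Replicate 1 had 16.8 CPM of Krtdap (0.126 to 1.09) and 54.9 of ND6 (66.0 to 67.7). Replicate 2 had 2224 CPM of Col1a1 (2085 to 2106).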

How the results depend on the processing

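By edgeR and limma, 0 genes were called in every setting run, leaving out each library in turn included (0 to 0 in both directions and both comparisons). DESeq2 called 174 higher and 91 lower in the pooled comparison and 1 lower for CAL_Dll4i against CAL. Without the 3 libraries with muscle RNA, a setting chosen after seeing the data, DESeq2 called 64 and 41 of 16488 genes with an adjusted p. For CAL_Dll4i against CAL it called 142 higher and 96 lower of 15766. The cause was not tested. With the replicate number as a block edgeR called 0 and 0. Same-numbered libraries did not deviate together (r = -0.385 to 0.144 in 12 pairs), and 0 of 12 libraries correlated best with its own number.

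The 20 leading genes kept their sign in every setting. Of the other named genes 10 changed sign. Leaving out 1 library moved Mrc1 from -0.02837 to 0.07604 (below 0 without control 1, control 2, CAL 1 or CAL_Dll4i 3: -0.01708, -0.02837, -0.0003157, -0.001673), Hes1 from -0.1768 to 0.009231 (without control 3), Vegfa from -0.1311 to 0.05829 (control 3), and Kdr from -0.1187 to 0.02963 (CAL 3; 0.007969 without control 3). Krt5 ran from -1.979 to 0.1261 (control 4), Krt19 from -0.7709 to 1.186 (control 4), Krtdap from -1.026 (CAL_Dll4i 1) to 1.577 and Csn3 from -0.05517 (CAL 1) to 0.8317. Krtdap was -0.526 by voom and -0.09747 with the block, and Krt19 0.0592 with the block. Without the muscle libraries Vegfa was 0.0378, Mrc1 -0.002227 and H2-Oa -0.03519 by edgeR, and 0.03979, -5.92e-05 and -0.03112 by DESeq2. With muscle and keratinocyte scores as covariates Vegfa was 0.01028, H2-Oa -0.1444, Mylpf -0.4148 and Krt19 0.1054. The muscle list's median was 4.74 on all libraries, 2.03 by voom, 0.30 without the 3 libraries and 0.06 with the covariates. Genes under 1 CPM, such as Syn2 and Cidea, rest on few reads.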

Other observations

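Small structural RNAs were looked up after values had been seen. All 8 had higher estimates (median log2 fold change 0.64), and their summed level was 380, 419, 260 and 415 CPM in controls, 653, 694, 518 and 580 in CAL, and 945, 658, 672 and 1012 in CAL_Dll4i, so no ASC library overlapped a control. Rn7sk, a regulator of transcription elongation, had 71.8, 85.9, 42.8 and 82.3 CPM in controls and 89.8 to 223 in ASC grafts (0.92 ± 0.21, adjusted p = 0.209 by edgeR and 0.000714 by DESeq2). Rn7s1, the RNA of the signal recognition particle, had a log2 fold change of 1.54 ± 0.28, which is uncertain because Rn7s2 is a near-identical copy. The part of library preparation or RNA quality in the levels of these RNAs was not tested.

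Xist, the RNA that silences an X chromosome in female cells, had 30.3, 34.0, 34.0 and 23.7 CPM in controls, 45.7, 39.8, 39.4 and 50.2 in CAL, and 59.8, 39.5, 48.4 and 51.0 in CAL_Dll4i. Every ASC library was above every control (0.61 ± 0.13, adjusted p = 0.186 by edgeR and 0.0013 by DESeq2). Genes of the Y chromosome were present in every library beside it, and the 4 tested, Ddx3y, Kdm5d, Eif2s3y and Uty, had a summed level of 389 to 481 CPM in controls and 299 to 466 in ASC grafts (median log2 fold change -0.15). Every library thus held Xist together with Y-linked RNA. The labels used here do not give the sex of donor or host.

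Lymphatic and B cell genes also had higher estimates. Of 7 lymphatic markers 6 were higher (median 0.82, and 0.21 without the 3 libraries with muscle RNA). Prox1, the transcription factor that defines lymphatic endothelium, had 1.44, 1.08, 0.585 and 0.912 CPM in controls, 5.10, 5.17, 0.0738 and 2.83 in CAL, and 1.96, 3.50, 5.53 and 2.86 in CAL_Dll4i, so CAL 3 was below all controls and the other 7 ASC libraries above them (1.75 ± 0.74). All 14 B and plasma cell genes were higher (median 0.55), none at an unadjusted p under 0.05 by edgeR, and the median was 1.13 without control 4 but 0.18 when the 3 muscle-bearing libraries were left out. Lymph node stroma markers had higher estimates in 6 of 8 (median 0.40), and their summed level was 28.5, 55.3, 68.1 and 129 CPM in controls, the last in control 4. Among ASC grafts it ran from 37.3 to 171, highest in CAL_Dll4i 3 and CAL 1 (147). Control 4, CAL_Dll4i 3 and CAL 1 also had the highest mean log2 levels of B and plasma cell genes (5.22, 5.71 and 5.19), and the part of lymph node tissue in these values was not tested.

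Of 16 circadian clock genes 9 were higher (median 0.05), among them Per2, a clock repressor, at 0.52 ± 0.17 and Tef, a clock output factor, at 0.27 ± 0.09. Red cell genes had lower estimates in 7 of 7 (median -0.59, but 0.04 by voom), with summed levels of 1099 and 1401 CPM in controls 1 and 3 and 321 to 351 in the others, and 260 to 907 in ASC grafts.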
